A study of Mus musculus with 16 samples.

Results

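The genes described here encode subunits of voltage-gated sodium channels in mouse dorsal root ganglia (DRG), the clusters of sensory nerve cell bodies beside the spinal cord. They were chosen by symbol and number 9 of the 36722 genes in the deposited table: the pore-forming (alpha) subunit genes Scn1a, Scn7a, Scn8a, Scn9a, Scn10a and Scn11a, and the beta subunit genes Scn2b, Scn3b and Scn4b. All 9 passed the filter on low values that left 13385 genes for testing. On build GRCm38, 3 alpha subunit genes lie together on the minus strand of chromosome 2: Scn1a (chr2:66270778-66440840), Scn9a (chr2:66480080-66634962) and Scn7a (chr2:66673425-66784914). Scn10a (chr9:119608456-119719322) and Scn11a (chr9:119753759-119825456) are neighbours on the minus strand of chromosome 9. The beta subunit genes lie on its plus strand, Scn2b (chr9:45117782-45130070) beside Scn4b (chr9:45138395-45154152), and Scn3b at chr9:40269217-40291618. Scn8a lies on the plus strand of chromosome 15 (chr15:100869858-101045938).

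Gene expression was measured by sequencing polyA-selected RNA of lumbar DRG from C57BL/6 mice. Every mouse, controls included, had received 20 µl of 2% carrageenan, an irritant polysaccharide, into a paw, and 6 days later an injection into the fluid around the spinal cord. The injection held 1 µg of the IL4-10 fusion protein (IL4-10 FP, n = 6 libraries), in which the anti-inflammatory cytokines IL4 and IL10 are joined, or 0.5 µg each of the separate cytokines (IL4+IL10, called the combination, n = 5), or PBS vehicle (n = 5). DRG were collected 6 h after the injection. No group without carrageenan is part of the comparisons, so the effect of the inflammation itself was not analysed here. The labels do not state that each library came from another mouse, nor whether ganglia of both sides were used, and the p-values measure the spread between these libraries.

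A voltage-gated sodium channel consists of a large alpha subunit that forms the pore and of beta subunits that modify its gating, its transport to the membrane and cell adhesion. These channels carry the rising phase of the action potential. In sensory neurons Scn9a (the channel Nav1.7) amplifies small depolarisations near threshold, Scn10a (Nav1.8) carries most of the current of the upstroke in pain-sensing neurons, and Scn11a (Nav1.9) carries a slow current near the resting potential. The last 2 resist tetrodotoxin. Scn8a (Nav1.6) is the main channel of the nodes of Ranvier of myelinated axons, and Scn1a (Nav1.1) is found mostly in neurons with myelinated axons. Scn7a encodes Nax, which responds to sodium concentration rather than to voltage and is known from glia as well as neurons. Scn2b and Scn4b encode beta subunits that are bound to the alpha subunit by a disulfide bond, and Scn3b encodes one that is not.

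Levels are given as scaled values, whole numbers to which the deposited log2 values decode. They are scaled between libraries and are not read counts, so the depth of each library is unknown and no counting interval is given. The sum over all genes lay between 16707007 and 20879857 per library. The typical correlation of a library with the others was lowest for fusion protein replicate 1, with a median r of 0.967 over genes, while that of the other libraries lay between 0.977 and 0.986. The sample numbers in the labels fall into a set from 1 to 8 and a set from 12 to 19. All combination libraries, 2 fusion protein libraries and 1 vehicle library have a number of 12 or more, and no label says what these sets stand for. To check the ganglion label, the sensory neuron markers Tubb3 and Snap25 were read in every library, at 29658 or more and 25362 or more. Of the 4 spinal cord glia markers, Olig2 was at the undetected value of 1 throughout, Mog was at 1 to 3 and Mobp at 4 to 69. Gfap, which glia of the ganglion can also express, was at 96 to 1448 in fusion protein, 21 to 56 in combination and 19 to 737 in vehicle libraries, and was higher with the fusion protein than with the combination (1.96 ± 0.57, adjusted p = 0.0228). The part of Gfap-expressing cells in the differences between the treatments was not tested. In whole ganglia, fewer cells of a type and less RNA per cell cannot be told apart.

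RefSeq promoter windows of build GRCm38.p6, from 250 bases before to 50 bases after the transcription start, were matched for 8 of the 9 genes, all but Scn3b. Both strands of these windows were searched for TTCNNNGAA, a palindrome that STAT factors downstream of cytokine receptors recognise, for the same palindrome with a spacer longer by 1 base, for the GC box GGGCGG and for TATAAA. The windows printed here are those of Scn8a, Scn1a, Scn7a, Scn9a and Scn2b, 5′ to 3′ on the strand of the gene, with matches in capitals.
Scn8a (chr15:100870395-100870694, plus strand): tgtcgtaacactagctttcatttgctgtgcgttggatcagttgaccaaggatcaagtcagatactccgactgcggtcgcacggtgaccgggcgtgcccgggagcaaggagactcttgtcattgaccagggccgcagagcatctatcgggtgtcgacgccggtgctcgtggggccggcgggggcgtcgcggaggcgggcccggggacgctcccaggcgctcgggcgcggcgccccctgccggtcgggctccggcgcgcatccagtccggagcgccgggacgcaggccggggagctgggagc
Scn1a (chr2:66440788-66441087, minus strand): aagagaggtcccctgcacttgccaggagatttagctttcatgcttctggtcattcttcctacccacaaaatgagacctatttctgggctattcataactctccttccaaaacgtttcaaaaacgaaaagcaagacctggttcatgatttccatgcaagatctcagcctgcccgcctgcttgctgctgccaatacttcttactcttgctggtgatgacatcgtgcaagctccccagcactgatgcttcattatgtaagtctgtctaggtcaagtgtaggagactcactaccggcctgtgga
Scn7a (chr2:66784861-66785160, minus strand): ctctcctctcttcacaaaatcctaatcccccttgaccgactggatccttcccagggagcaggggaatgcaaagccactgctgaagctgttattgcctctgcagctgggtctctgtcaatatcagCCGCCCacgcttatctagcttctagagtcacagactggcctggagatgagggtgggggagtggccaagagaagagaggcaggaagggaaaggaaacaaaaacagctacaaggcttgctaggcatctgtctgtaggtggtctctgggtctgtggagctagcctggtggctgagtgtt
Scn9a (chr2:66634913-66635212, minus strand): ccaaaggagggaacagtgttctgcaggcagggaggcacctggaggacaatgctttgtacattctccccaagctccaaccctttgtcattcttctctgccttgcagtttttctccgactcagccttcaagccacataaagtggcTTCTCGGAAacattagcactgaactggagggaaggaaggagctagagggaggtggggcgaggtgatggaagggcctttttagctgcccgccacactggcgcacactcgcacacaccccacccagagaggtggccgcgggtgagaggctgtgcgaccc
Scn2b (chr9:45117626-45117925, plus strand): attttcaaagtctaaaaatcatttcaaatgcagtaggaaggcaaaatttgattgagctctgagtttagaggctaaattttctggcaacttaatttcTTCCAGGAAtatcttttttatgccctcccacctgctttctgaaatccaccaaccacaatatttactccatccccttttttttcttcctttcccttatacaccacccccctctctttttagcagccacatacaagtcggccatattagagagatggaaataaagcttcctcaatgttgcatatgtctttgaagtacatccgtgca
TTCNNNGAA matched the windows of Scn9a, from base -107 relative to the start, and Scn2b, from base -154. It matches 8.30% of the 32851 RefSeq promoter windows of the same length. GGGCGG matched the Scn7a window, from base -126 and on the opposite strand, against 35.7% of all windows. The windows of Scn1a, Scn10a, Scn11a and Scn4b, and both annotated windows of Scn8a, held none of the 4 motifs; the palindrome with the longer spacer matches 6.95% and TATAAA 13.6% of all windows. The Scn8a window shown is rich in G and C, at 70.0%, while that of Scn2b has 38.3% and that of Scn1a 47.3%.

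Scn10a had the highest mean of the 9 genes in every group, although its range overlapped that of Scn7a in fusion protein and combination libraries. Below it, the order differed between treated and vehicle libraries only within the overlapping pairs Scn7a and Scn11a, and Scn9a and Scn4b. Levels of different genes are compared here as scaled values per kilobase of exonic length. Scn10a stood at 2850 ± 347 per kb in fusion protein libraries, 2830 ± 404 in combination libraries and 3021 ± 229 in vehicle libraries (SD). Scn11a and Scn7a came next, at 2101 ± 253 and 2084 ± 186 per kb in vehicle libraries, where their ranges overlapped. Scn4b, at 1208 ± 116, and Scn9a, at 1151 ± 123 per kb, also overlapped in vehicle libraries. Scn1a at 433 ± 47.6, Scn3b at 387 ± 44.4 and Scn8a at 312 ± 33.4 per kb followed, each overlapping its neighbour, and Scn2b was lowest at 170 ± 24.7. In both treated groups Scn8a did not overlap Scn3b. They stood at 214 ± 30.4 and 376 ± 19.8 per kb in fusion protein libraries and at 263 ± 45 and 476 ± 44 in combination libraries.

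**Figure D1:**
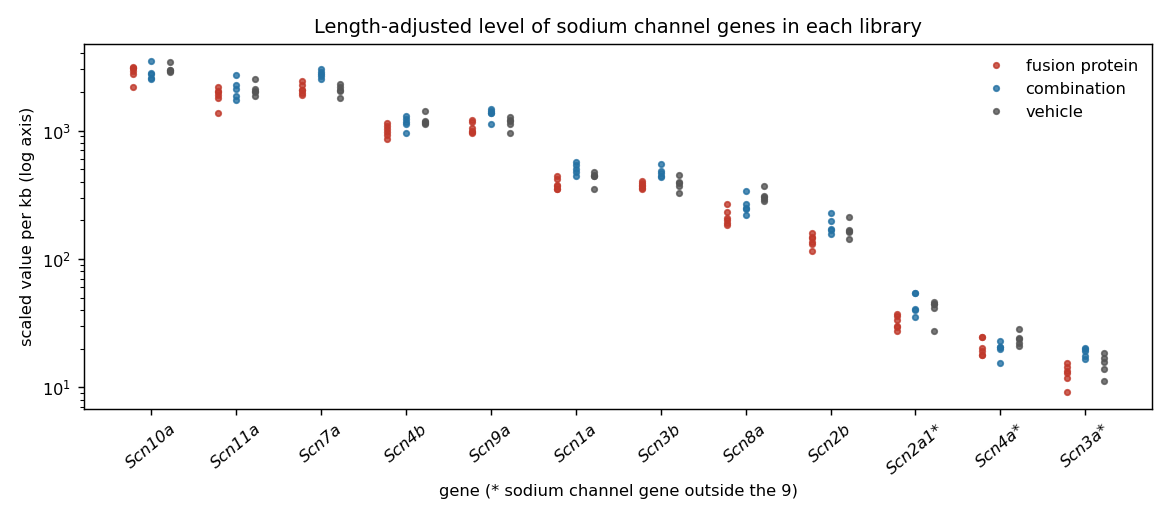
Scaled value per kilobase (log axis) of the 9 genes and of 3 further sodium channel genes (marked *), 1 point per library, with fusion protein libraries to the left, combination libraries in the middle and vehicle libraries to the right. Scn10a has the highest mean in each group, and Scn2a1, Scn3a and Scn4a lie under 60 per kb in every library.

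Together Scn10a and Scn11a made up 55.5% ± 3.28 of the length-adjusted sum of the 6 alpha subunit genes in fusion protein libraries, 50.2% ± 3.36 in combination libraries and 56.3% ± 1.93 in vehicle libraries (SD). Scn7a held 25.0% ± 2.07, 28.2% ± 2.21 and 22.9% ± 0.989 of that sum in the same order of groups. Scn8a held 2.52% ± 0.192 in fusion protein, 2.65% ± 0.189 in combination and 3.43% ± 0.173 in vehicle libraries. Its lowest vehicle share, 3.29%, was above its highest share in a treated library, 2.97%. Of the beta subunits, Scn4b held 65.9% ± 2.01, 63.6% ± 2.10 and 68.4% ± 1.40 of the sum of the 3 genes in fusion protein, combination and vehicle libraries. These shares are descriptions and were not tested.

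The 3 comparisons gave different sets of changed genes. With the fusion protein, 2 of the 9 genes (Scn8a and Scn4b) were lower than in vehicle libraries and 0 were higher; among all genes tested, 13.7% were lower and 12% higher. With the combination, 2 (Scn7a and Scn3b) were higher than in vehicle libraries and 0 were lower, against 24.2% higher and 12.3% lower among all genes. Between the treatments, 5 (Scn7a, Scn1a, Scn3b, Scn9a and Scn2b) were lower with the fusion protein than with the combination and 0 were higher, against 22.2% lower and 7.35% higher among all genes. The directions with 0 calls in limma held 0 genes, 1 gene (Scn8a, lower with the combination) and 0 genes at an unadjusted p under 0.05. The median log2 difference of the 9 genes was -0.17 with the fusion protein against vehicle, 0.10 with the combination against vehicle and -0.32 between the treatments. Over all genes tested these medians were -0.02, 0.06 and -0.09. Both comparisons with vehicle use the same 5 vehicle libraries.

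**Figure D2:**
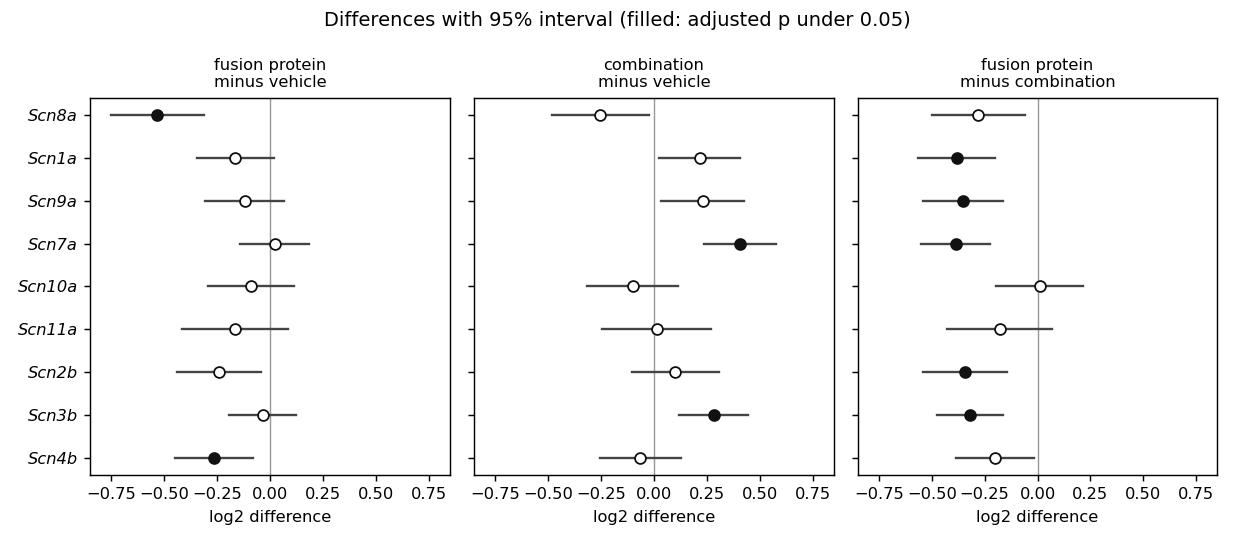
Log2 difference of each gene (x axis) in the 3 comparisons, with its 95% interval; filled points have an adjusted p under 0.05. Filled points lie left of 0 for Scn8a and Scn4b in the first panel, right of 0 for Scn7a and Scn3b in the second, and left of 0 for 5 genes in the third.

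Scn8a, the node of Ranvier channel, was the one of the 9 that differed most between fusion protein and vehicle libraries. Its scaled values ran between 2917 and 4193, with a median of 3232, in fusion protein libraries. They were 3442, 3905, 3834, 4199 and 5318 in combination libraries and 4421, 4830, 4659, 5807 and 4906 in vehicle libraries. All 6 fusion protein libraries lay below the lowest vehicle library, and so did 4 of the 5 combination libraries, while combination replicate 5 lay within the vehicle range. Mean Scn8a with the fusion protein was 68.5% of the vehicle mean, a log2 difference of -0.53 ± 0.11 (SE; 95% interval -0.75 to -0.31; adjusted p = 0.00138). The same direction without overlap was found in 6.57% of all genes tested. Scn8a fell in this comparison in all 32 alternative settings; the adjusted p ranged up to 0.0321. Without fusion protein replicate 1, the library least like the others, the difference was -0.50 (adjusted p = 0.00275).

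The combination did not pass the threshold for Scn8a against vehicle, with -0.25 ± 0.11 (95% interval -0.48 to -0.02; adjusted p = 0.0788). This comparison depended on the processing: the difference was -0.42 with quantile normalisation (adjusted p = 0.000638) and -0.10 with the GC content and length trends of each library removed (adjusted p = 0.440). It also passed without combination replicate 5, at -0.34 (adjusted p = 0.0149). The treatments differed by -0.28 ± 0.11 for Scn8a, fusion protein minus combination, with an adjusted p of 0.0509, just over the threshold. It passed without vehicle replicate 1 (adjusted p = 0.0485) or 4 (0.0429), fusion protein replicate 2 (-0.34, 0.0153) or combination replicate 1 (-0.34, 0.0196).

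**Figure D3:**
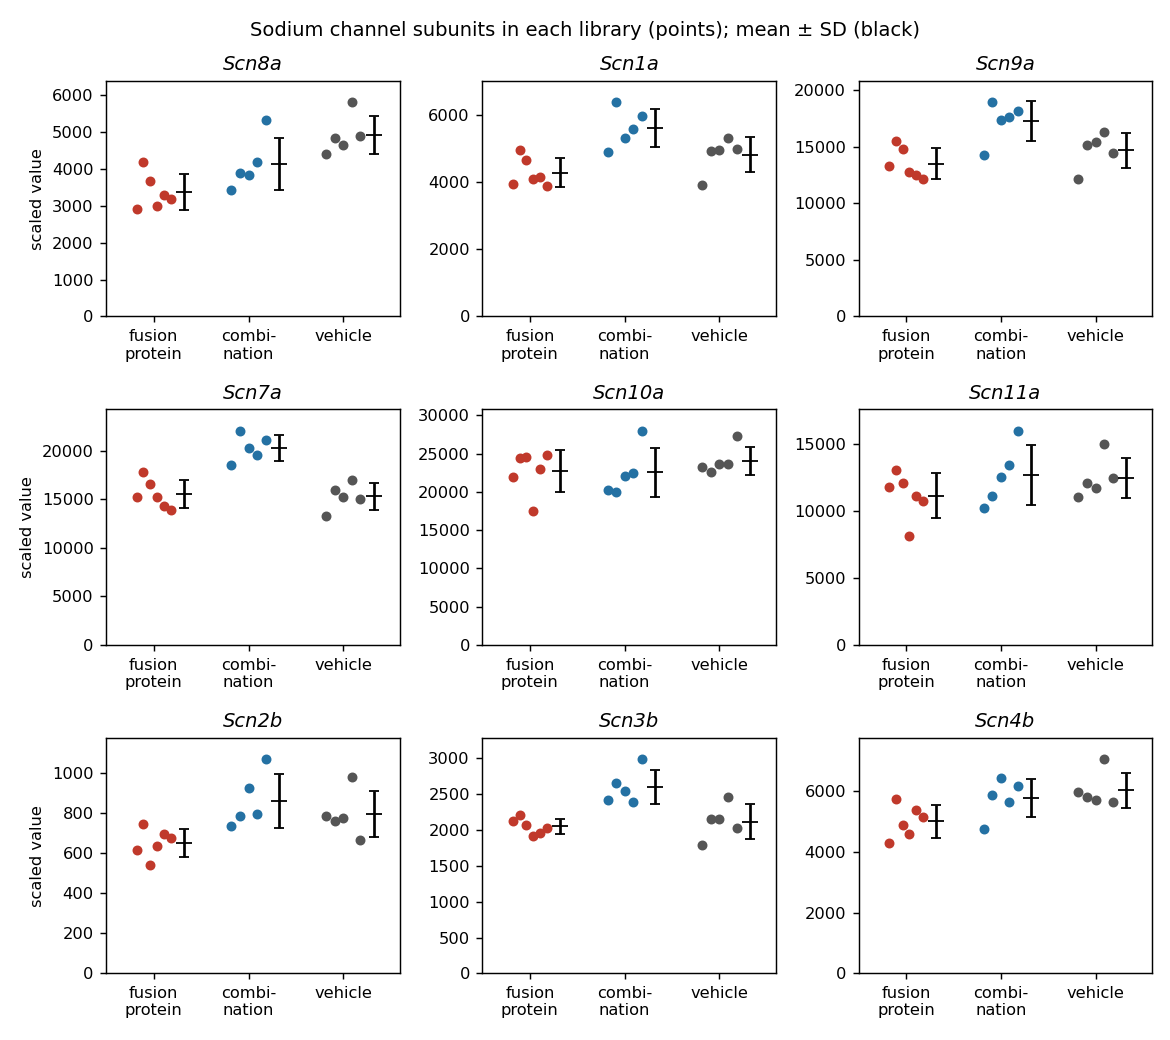
Scaled value (y axis, from 0) of each gene in each library, 1 point per library, with the mean ± SD of the group in black. For Scn8a the 6 fusion protein points lie below all 5 vehicle points, and for Scn7a the 5 combination points lie above all others.

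Scn1a and Scn9a, tetrodotoxin-sensitive channels, passed the threshold between the treatments and in neither comparison with vehicle; the calls between the treatments were lost with GC content and length trends removed. Scn1a had scaled values between 3884 and 4968, with a median of 4130, in fusion protein libraries. It had 4894, 6384, 5311, 5581 and 5965 in combination libraries and 3921, 4933, 4959, 5325 and 5001 in vehicle libraries. Vehicle replicate 1 lay apart from its group at the low end, and 5 of the 6 fusion protein libraries lay below every combination library. The log2 difference of Scn1a between fusion protein and combination was -0.38 ± 0.09 (SE, adjusted p = 0.00766), and it missed the threshold with trends removed (-0.15, adjusted p = 0.0651) and with the neuron marker median subtracted (-0.38, adjusted p = 0.0521). Against vehicle it was -0.17 ± 0.09 with the fusion protein (adjusted p = 0.174) and 0.22 ± 0.09 with the combination (adjusted p = 0.0694). Without vehicle replicate 1 the fusion protein difference passed the threshold, at -0.24 (adjusted p = 0.0409). Without vehicle replicate 4 or combination replicate 1 the combination difference passed it, at 0.25 (adjusted p = 0.0439) and 0.26 (adjusted p = 0.0286).

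Scn9a, the threshold channel, followed the same pattern. Its scaled values lay between 12140 and 15495, with a median of 13008, in fusion protein libraries. They were 14256, 18933, 17397, 17660 and 18146 in combination libraries and 12149, 15163, 15418, 16287 and 14497 in vehicle libraries. Combination replicate 1 lay within the fusion protein range, while the other 4 combination libraries lay above every other library. Scn9a fell to 78.1% of the combination mean with the fusion protein, a log2 difference of -0.35 ± 0.09 (SE, adjusted p = 0.0114), which was -0.20 with quantile normalisation (adjusted p = 0.0700) and -0.11 with trends removed (adjusted p = 0.118). With trends removed the combination passed against vehicle instead (0.14, adjusted p = 0.0386). The difference from vehicle was -0.12 ± 0.09 with the fusion protein (95% interval -0.31 to 0.07; adjusted p = 0.335) and 0.23 ± 0.09 with the combination (0.04 to 0.43; adjusted p = 0.0605). Without vehicle replicate 4 or combination replicate 1 the combination difference passed the threshold, at 0.27 (adjusted p = 0.0375) and 0.30 (adjusted p = 0.0124). Scn9a shares 180 exonic bases with the antisense gene Gm13629, whose scaled values were between 51 and 180, and whether the counting used strand is not given in the sources used here.

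Scn10a and Scn11a, the tetrodotoxin-resistant channels of pain-sensing neurons, passed the threshold in none of the 3 comparisons. Scn10a had scaled values between 17540 and 24803, with a median of 23728, in fusion protein libraries. It had 20286, 19963, 22079, 22438 and 27971 in combination libraries and 23191, 22620, 23697, 23582 and 27242 in vehicle libraries. All 3 groups overlapped, with fusion protein replicate 4 lowest and combination replicate 5 highest. The 95% interval of the Scn10a log2 difference was -0.30 to 0.11 for the fusion protein against vehicle (adjusted p = 0.523), -0.32 to 0.11 for the combination against vehicle (adjusted p = 0.464) and -0.19 to 0.22 between the treatments (adjusted p = 0.938). With quantile normalisation Scn10a was lower with the combination than in vehicle libraries, at -0.24 (adjusted p = 0.0245).

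Scn11a was spread more widely within groups. Its scaled values lay between 8138 and 13028, with a median of 11452, in fusion protein libraries. They were 10205, 11121, 12569, 13413 and 15981 in combination libraries and 11040, 12114, 11747, 14978 and 12436 in vehicle libraries. Both ends of the Scn11a range were in treated libraries, fusion protein replicate 4 and combination replicate 5, as for Scn10a. The 95% interval was -0.42 to 0.08 for the fusion protein against vehicle (adjusted p = 0.315), -0.25 to 0.27 for the combination against vehicle (adjusted p = 0.948) and -0.43 to 0.07 between the treatments (adjusted p = 0.247).

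Scn7a, the sodium sensor, was higher in every combination library than in any other library. Its scaled values lay between 13939 and 17824, with a median of 15245, in fusion protein libraries. They were 18531, 22029, 20284, 19574 and 21092 in combination libraries and 13273, 15907, 15267, 17003 and 15023 in vehicle libraries. The combination mean was 132.7% of the vehicle mean, a log2 difference of 0.41 ± 0.08 (SE; 95% interval 0.24 to 0.58; adjusted p = 0.000797). The same direction without overlap was found in 15.1% of all genes tested. Scn7a kept this call in all 31 alternative settings; the adjusted p ranged up to 0.0287, and the difference was 0.24 with quantile normalisation. The fusion protein did not differ detectably from vehicle for Scn7a, at 0.02 ± 0.08 (95% interval -0.14 to 0.18; adjusted p = 0.864). Between the treatments the difference was -0.39 ± 0.08 (adjusted p = 0.00462), and all 6 fusion protein libraries lay below the lowest combination library, as in 6.44% of all genes tested. This call between the treatments held in 30 of 32 alternative settings, with an adjusted p of up to 0.171.

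Among the beta subunits Scn3b behaved most like Scn7a. Its scaled values lay between 1913 and 2210, with a median of 2048, in fusion protein libraries. They were 2417, 2653, 2547, 2386 and 2985 in combination libraries and 1788, 2147, 2158, 2458 and 2028 in vehicle libraries. Fusion protein libraries all lay below the lowest combination library, as in 6.44% of all genes tested. Vehicle replicate 4 was the only vehicle library within the combination range. Scn3b rose by 0.28 ± 0.08 on the log2 scale with the combination against vehicle (adjusted p = 0.00851) and was lower with the fusion protein than with the combination, at -0.32 ± 0.08 (adjusted p = 0.00826). Both calls were lost, at about the same size, when the sensory neuron marker median of each library was subtracted (adjusted p = 0.0786 and 0.0626). Calls over all genes fell in that setting too. With the combination against vehicle they fell from 3240 to 1774 higher and from 1651 to 1338 lower. Between the treatments they fell from 2966 to 428 lower and from 984 to 495 higher. Against vehicle the fusion protein difference was -0.04 ± 0.08 (95% interval -0.19 to 0.12; adjusted p = 0.752).

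Scn2b, a disulfide-bound beta subunit, was lower with the fusion protein than with the combination. Its scaled values lay between 541 and 747, with a median of 655, in fusion protein libraries. They were 734, 784, 922, 795 and 1067 in combination libraries and 784, 761, 775, 980 and 664 in vehicle libraries. Fusion protein replicate 2, the highest of its group, was the only one to reach into the combination range. The treatments differed by -0.34 ± 0.10 for Scn2b (SE, adjusted p = 0.0151). Against vehicle it had -0.24 ± 0.10 with the fusion protein (adjusted p = 0.0666) and 0.10 ± 0.10 with the combination (adjusted p = 0.444). The fusion protein value passed the threshold without vehicle replicate 5, at -0.29 (adjusted p = 0.0373), without fusion protein replicate 2, at -0.28 (adjusted p = 0.0440), and without combination replicate 5, at -0.24 (adjusted p = 0.0448).

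Scn4b, the beta subunit linked to resurgent current, was lower with the fusion protein than in vehicle libraries by a margin that single libraries decided. Its scaled values lay between 4275 and 5725, with a median of 5003, in fusion protein libraries. They were 4755, 5854, 6421, 5614 and 6155 in combination libraries and 5953, 5782, 5701, 7030 and 5629 in vehicle libraries. Of the fusion protein libraries 5 lay below the lowest vehicle library. The log2 difference of Scn4b was -0.27 ± 0.09 (SE, adjusted p = 0.0311). It missed the threshold without vehicle replicate 4 (-0.21, adjusted p = 0.0971) and without fusion protein replicate 1 (-0.22, 0.0669), replicate 3 (-0.26, 0.0546) or replicate 4 (-0.24, 0.0644). With the combination Scn4b differed from vehicle by -0.07 ± 0.09 (adjusted p = 0.612; -0.23 with quantile normalisation, adjusted p = 0.0105). Between the treatments it differed by -0.20 ± 0.09 (adjusted p = 0.0832), which passed without fusion protein replicate 2 (-0.24, 0.0386) or combination replicate 1 (-0.27, 0.0182).

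Libraries with the same range of sample numbers were also compared alone. Among the samples numbered 1 to 8, with 4 fusion protein and 4 vehicle libraries, Scn8a fell by 0.51 on the log2 scale (adjusted p = 0.0218). Scn4b had -0.33 there (adjusted p = 0.0538) and Scn2b -0.33 (adjusted p = 0.0477). The samples numbered 12 to 19 hold 2 fusion protein and 5 combination libraries. Among them Scn7a (-0.52), Scn9a (-0.48), Scn1a (-0.47) and Scn3b (-0.35) were lower with the fusion protein (adjusted p between 0.00490 and 0.0238). The share of all genes called in this subset is not reported here. Scn2b had -0.28 there (adjusted p = 0.0871). For the combination against vehicle only 1 vehicle library has a late number, so no such value is given. With the late number as a covariate the combination still differed from vehicle by 0.51 for Scn7a (adjusted p = 0.00176) and 0.33 for Scn3b (adjusted p = 0.0232).

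The values of Scn1a, Scn9a and Scn7a were closely correlated between libraries of the same group, though not more closely than with some genes outside the 9. Correlations were taken over the deviations of the 16 libraries from their group means; the points share library scaling and gene-wide trends, and the values are descriptions. Pearson's r was 0.94 between Scn7a and Scn9a, 0.93 between Scn1a and Scn9a and 0.92 between Scn1a and Scn7a. Each of these genes had a higher r with a gene outside the 9: Scn1a with Lrrcc1 (0.977), Scn7a with B3galt1 (0.974) and Scn9a with Abca6 (0.98). All 36 pairs of the 9 genes had a positive r, with a median of 0.61. The lowest value, 0.13, was between Scn7a and Scn10a. Scn1a, Scn2a1, Scn3a and Scn9a are close paralogues, and how reads that match several of them were counted is not given in the sources used here.

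**Figure D4:**
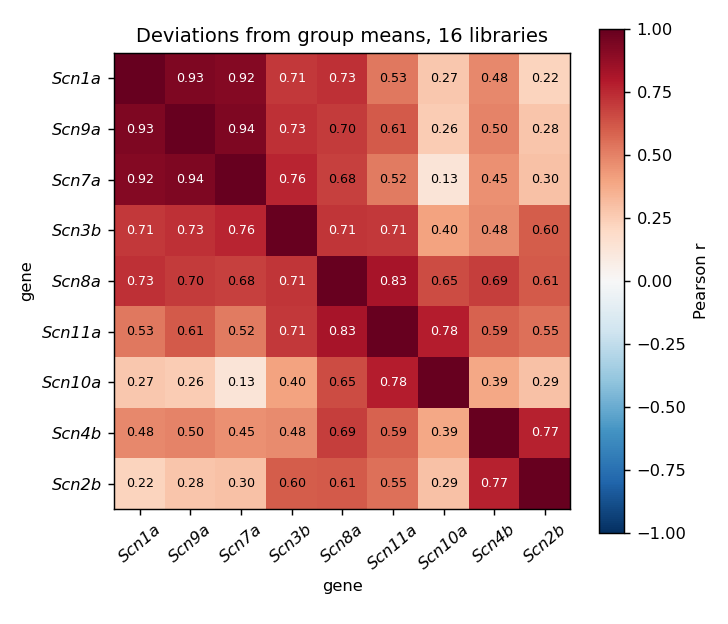
Pearson's r between genes over the deviations of 16 libraries from their group means, printed in each cell. Scn1a, Scn9a and Scn7a form a block of r from 0.92 to 0.94, and Scn10a has r under 0.3 with each of these 3.

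The tested genes whose deviations were most like those of each member were named by the same measure. Scn8a was closest to Nfasc, which encodes the node of Ranvier adhesion protein neurofascin, with r = 0.975 and Spearman's rho = 0.944, followed by Robo1 (r = 0.946) and G3bp2 (r = 0.943). Scn10a was closest to Ehd3 (r = 0.976), Scn11a to Rtf1 (r = 0.962), Scn9a to Abca6 (r = 0.980), Scn1a to Lrrcc1 (r = 0.977) and Scn7a to B3galt1 (r = 0.974). Of the beta subunits, Scn2b was closest to Gatsl2 (r = 0.945), Scn3b to Dennd5a (r = 0.955) and Scn4b to Epb41l1 (r = 0.959).

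The members differ in base composition, and libraries differed in how values depended on it. The GC content of Scn1a, Scn7a and Scn9a, which lie together on chromosome 2, is between 37.3% and 38.8%, while that of the other 6 members is between 45.0% and 51.8% and the median of the genes tested is 45.7%. Exonic lengths run between 4656 bases for Scn2b, near the median of 4616 of the genes tested, and 15766 bases for Scn8a. Per SD of log2 exonic length, values deviated from the mean of all libraries by -0.05 ± 0.02 in fusion protein libraries, -0.01 ± 0.02 in combination libraries and 0.07 ± 0.03 in vehicle libraries (SD). Per SD of GC content they deviated by 0.02 ± 0.06 in fusion protein, -0.09 ± 0.04 in combination and 0.07 ± 0.06 in vehicle libraries.

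With these trends removed from each library, several differences became smaller. Scn8a still fell with the fusion protein against vehicle, by 0.28 ± 0.08 on the log2 scale (adjusted p = 0.0201), while Scn4b was at -0.18 ± 0.08 (adjusted p = 0.118). Scn7a rose with the combination by 0.24 ± 0.05 (adjusted p = 0.00102), Scn3b by 0.21 ± 0.06 (adjusted p = 0.0114) and Scn9a by 0.14 ± 0.05 (adjusted p = 0.0386). Between the treatments 4 members were lower with the fusion protein: Scn2b at -0.41 ± 0.09 (adjusted p = 0.0126), Scn4b at -0.27 ± 0.08 (0.0423), Scn3b at -0.23 ± 0.05 (0.0146) and Scn7a at -0.18 ± 0.04 (0.0178). Among all genes in this setting, 919 were lower and 660 higher between the treatments. Scn1a (-0.15 ± 0.05, adjusted p = 0.0651) and Scn9a (-0.11 ± 0.05, adjusted p = 0.118) then missed the threshold.

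**Figure D5:**
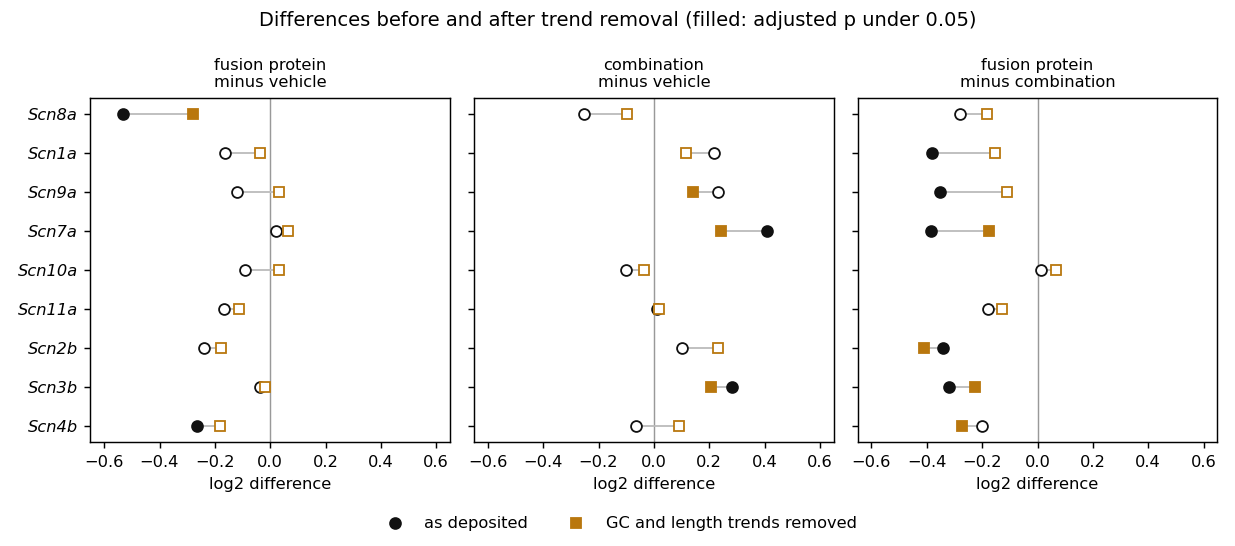
Log2 difference of each gene (x axis) in the 3 comparisons as deposited (circles) and with GC content and length trends of each library removed (squares); filled symbols have an adjusted p under 0.05. In the first panel Scn8a is at -0.53 as deposited and at -0.28 with trends removed, filled in both, while Scn1a and Scn9a lose their filled symbol in the third.

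Of the sodium channel genes outside the 9, Scn2a1, Scn3a and Scn4a (the skeletal muscle channel) were weak, at 12.8 to 45.0 scaled values per kb in every group mean. Scn2a1 had 350 to 474 scaled values in fusion protein libraries, 452 to 697 in combination libraries and 351 to 587 in vehicle libraries. Scn3a had 114 to 194 in fusion protein, 208 to 253 in combination and 139 to 231 in vehicle libraries. Scn2a1 (-0.38 ± 0.11, adjusted p = 0.0202) and Scn3a (-0.37 ± 0.09, adjusted p = 0.00907) were lower with the fusion protein than with the combination, and neither passed with the trends removed (adjusted p = 0.303 and 0.128). Against vehicle neither passed with either treatment, and Scn4a passed in none of the 3 comparisons (adjusted p between 0.113 and 0.731).

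Of 20 genes that encode proteins known to bind, anchor or modify sodium channels, 3 were higher and 4 lower with the fusion protein than in vehicle libraries, against 12% and 13.7% of all genes tested, with a median difference of -0.06. The 4 with the lowest p were S100a10, a carrier of Nav1.8 to the membrane (0.42 ± 0.06, adjusted p = 9.86e-05), Calm2, a calmodulin gene (0.44 ± 0.06, adjusted p = 0.000153), Dpysl2, which encodes the channel-binding protein CRMP2 (-0.79 ± 0.12, adjusted p = 0.000245), and Nfasc (-0.48 ± 0.09, adjusted p = 0.00111). Nfasc fell to 71.5% of the vehicle mean. Ank3, the ankyrin that anchors sodium channels at nodes and chosen after its values were seen, was also lower (-0.48 ± 0.11, adjusted p = 0.00390). Sptbn4 (-0.40 ± 0.17, adjusted p = 0.0911) and Nrcam (-0.02 ± 0.08, adjusted p = 0.846), which also encode node proteins and were chosen in the same way, did not pass. With trends removed Nfasc remained lower (-0.22 ± 0.07, adjusted p = 0.0361) and Ank3 did not pass (-0.13 ± 0.06, adjusted p = 0.155).

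With the combination 9 of the 20 were higher and 3 lower than in vehicle libraries, against 24.2% and 12.3% of all genes tested, with a median of 0.13. Calm2 (0.65 ± 0.07, adjusted p = 4.22e-06) and S100a10 (0.53 ± 0.06, adjusted p = 9.71e-06) rose, and Dpysl2 fell by 0.53 ± 0.13 on the log2 scale (adjusted p = 0.00323). Nfasc was lower with the combination too (-0.32 ± 0.10, adjusted p = 0.0129), as was Sptbn4 (-0.66 ± 0.18, adjusted p = 0.00731). Both were outside the 4 with the lowest p. With trends removed Nfasc did not pass (-0.11 ± 0.08, adjusted p = 0.301), while Sptbn4 did (-0.50 ± 0.18, adjusted p = 0.0483). Ank3 (-0.28 ± 0.12, adjusted p = 0.0629) and Nrcam (0.175 ± 0.080, adjusted p = 0.0932) did not pass. Cntn1, the axonal adhesion protein contactin, was higher (0.25 ± 0.08, adjusted p = 0.0229), but not with trends removed (0.13, adjusted p = 0.172). Between the treatments 6 of the 20 were lower with the fusion protein, against 22.2% of all genes tested, with a median of -0.20. Among them were Cntn1 (-0.31 ± 0.08, adjusted p = 0.0118), Fgf14, which encodes an intracellular modulator of sodium channels (-0.25 ± 0.07, adjusted p = 0.0121), and Calm2 (-0.21 ± 0.06, adjusted p = 0.0213). With trends removed Cntn1 (-0.09, adjusted p = 0.374), Fgf14 (-0.08, adjusted p = 0.473) and Calm2 (-0.12, adjusted p = 0.127) did not pass. Fgf14 lay near the floor, at log2 means of 7.03 with the fusion protein and 7.29 with the combination.

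Markers of the cells that hold these channels were counted beside the share of all genes called. Of 12 sensory neuron markers, 2 were higher and 1 lower with the fusion protein than in vehicle libraries (median difference 0.09), a share near the 12% higher and 13.7% lower among all genes. With the combination 6 were higher and 1 lower (median 0.20), against 24.2% and 12.3%. Between the treatments 5 were lower with the fusion protein (median -0.09), against 22.2%. With trends removed, 1 of these markers was higher and 2 lower with the fusion protein against vehicle, beside 1662 and 1720 of all genes. With the combination 2 were then higher and 0 lower, beside 2053 and 1410. Between the treatments 0 were then lower, beside 919 of all genes. The summed scaled value of the neuron markers was 178482 to 253967 in fusion protein libraries, 196816 to 238336 in combination libraries and 175407 to 213903 in vehicle libraries. When the neuron marker median of each library was subtracted from its values, Scn8a kept its fall against vehicle (-0.55, adjusted p = 0.00376), and so did Scn4b (-0.28, adjusted p = 0.0277). With the combination Scn7a kept its rise (0.39, adjusted p = 0.0185), while Scn3b missed the threshold (0.27, adjusted p = 0.0786). Scn7a (-0.38, adjusted p = 0.0444) and Scn2b (-0.34, adjusted p = 0.0455) then passed between the treatments, while Scn1a (-0.38, 0.0521), Scn3b (-0.32, 0.0626) and Scn9a (-0.35, 0.0699) missed the threshold at about the same size.

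Of 8 markers of pain-sensing neurons, 2 were higher and 1 lower with the fusion protein than in vehicle libraries, and 4 were higher and 2 lower with the combination. Of 8 markers of large myelinated neurons, 1 was higher and 1 lower in each of these comparisons. Among all genes tested, 12% were higher and 13.7% lower with the fusion protein, and 24.2% higher and 12.3% lower with the combination. Scn7a is also known from glia. Of 6 satellite glia markers 3 were higher and 1 lower with the combination than in vehicle libraries. Of 7 Schwann cell markers 2 were higher and 0 lower, against the same 24.2% and 12.3% of all genes. Fabp7, a satellite glia gene, ranged from 1086 to 1932 scaled values in fusion protein, 2578 to 3257 in combination and 1140 to 2076 in vehicle libraries. Cdh19 (0.47 ± 0.13, adjusted p = 0.0101) and Glul (0.28 ± 0.11, adjusted p = 0.0449) were higher with the combination than in vehicle libraries too. Sox10 was lower (-0.80 ± 0.12, adjusted p = 5.15e-05), at 748 to 866 in fusion protein, 422 to 654 in combination and 899 to 1470 in vehicle libraries, and Apoe (0.04 ± 0.25, adjusted p = 0.907) and Kcnj10 (-0.08 ± 0.13, adjusted p = 0.677) did not pass with the combination against vehicle. The summed satellite glia value was 35386 to 70247, 39506 to 49707 and 33612 to 54157, and the summed Schwann cell value 69251 to 93694, 72440 to 96000 and 64078 to 96676, in fusion protein, combination and vehicle libraries. The part of these markers in the Scn7a difference was not tested.

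Summed over each list, macrophage and neutrophil markers were much weaker than neuronal ones. Single markers overlapped: in fusion protein libraries the neutrophil marker S100a9 was at 819 to 2985 and the neuron marker Isl1 at 1941 to 2082. Of 8 macrophage markers, 4 were higher and 0 lower with the fusion protein than in vehicle libraries, against 12% and 13.7% of all genes tested. The summed macrophage value was 1631 to 2650 in fusion protein, 1401 to 1968 in combination and 1204 to 2082 in vehicle libraries. The part of macrophage markers in the Scn8a and Scn4b differences was not tested.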

How the data were processed

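PolyA RNA of lumbar DRG was sequenced in 16 libraries of 3 groups, taken from the labels. Per the submitters' processing notes the authors used FastQC, STAR, HTSeq and DESeq2 with build GRCm38; versions, strand setting and treatment of reads that match several genes are not given in the sources used here. The deposited values are variance-stabilised log2 values made by the authors, and a deposited column gives GC content in percent. They were inverted with a transform of 2 parameters, estimated on the 60 smallest of 11441 distinct values; 100% then came out whole within 0.01. The scaling before it is not given, so depth is unknown. Undetected genes sit at 6.17 (decoded 1), and fusion protein replicates 5 and 6 hold 7 and 27 values of 5.99 (decoded 0). Near this floor log2 differences are compressed.

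Genes with a mean of at least 6.99, which is 1 above the lowest value, were tested (13385 genes). All 16 libraries were fitted in 1 model with limma 3.58.1 in R 4.3.3 (eBayes with trend and robust). Tests were two-sided, p-values were adjusted by Benjamini-Hochberg over all genes tested, and the threshold was 0.05. The script was tested on simulated data. Gene coordinates and exonic lengths were taken from GENCODE for GRCm38. The GC content and length trends of each library were fitted with splines of 3 degrees of freedom; 15 tested genes without a length were left out. Python 3.11.15 and matplotlib 3.10.9 made summaries and figures.

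The members and lists were chosen with earlier results of these data known. Named genes are all members, other sodium channel genes, up to 4 of the 20 partner genes past the threshold with the lowest p in each comparison, and the 3 genes most like each member; some genes under this rule are not reported here. The replicate numbers of the labels did not pair the libraries. Alternatives were other filters, scalings, tests, covariates, thresholds and the omission of each library. Removing trends together with the replicate block or with the neuron marker median was chosen after seeing the data.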

Additional observations from a re-analysis of the deposited data

Results flagged for a closer look

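Within the groups, 42 sets of values (14 sodium channel genes in 3 groups) were checked for a library far from its neighbours, with a rule that chance meets in about 1 in 20 sets; 5 met it. Vehicle replicate 1 was low for Scn1a, at a log2 value of 11.98 with the next vehicle library at 12.31, and for Scn2a1, at 8.88 with the next at 9.33. Vehicle replicate 4 was high for Scn4b, at 12.81 with the next at 12.57. Scn10a was low in fusion protein replicate 4, at 14.11 with the next at 14.43, and high in vehicle replicate 5, at 14.74 with the next at 14.54.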

How the results depend on the processing

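The main counts of members past the threshold were 2 for the fusion protein against vehicle, 2 for the combination against vehicle and 5 between the treatments. Against vehicle the fusion protein count was 5 with array weights and 1 with trends removed, with trends removed and the late number, with trends removed and the block, with trends removed and the neuron marker median, and at an adjusted p under 0.01. Leaving out 1 library gave 1 to 3. For the combination against vehicle it was 5 with quantile normalisation (2 higher, 3 lower), with array weights (4 higher, 1 lower) and at an adjusted p under 0.1, and 1 with the neuron marker median subtracted, with the late number and trends removed, and with the neuron marker median and trends removed. Leaving out 1 library gave 2 to 4; the count was 4 without vehicle replicate 4 or combination replicate 1. Between the treatments it was 2 with the neuron marker median and with the late number and trends removed, 3 at an adjusted p under 0.01, 1 with the neuron marker median and trends removed, 7 with array weights and at an adjusted p under 0.1, 6 with the stricter filter and with log2 of the decoded value plus 1, and 4 with quantile normalisation and with trends removed. Leaving out 1 library gave 5 to 7, with 7 without fusion protein replicate 2 or combination replicate 1. The replicate block, for numbers that do not pair the libraries (correlations of -0.20 to 0.60 over 15 pairs, 7 of them over 0.1), gave 2, 4 and 5 members in the order above. Calls over all genes are given for the main test, quantile normalisation, neuron marker median and trends removed, in this order. With the fusion protein against vehicle, 1840, 1995, 1152 and 1720 were lower and 1610, 1938, 912 and 1662 higher. With the combination 1651, 1898, 1338 and 1410 were lower and 3240, 2550, 1774 and 2053 higher. Between the treatments 2966, 1411, 428 and 919 were lower and 984, 972, 495 and 660 higher. For other settings they are not reported here.

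The differences that changed sign had missed the threshold in the reported test. Scn11a with the combination was -0.20 with quantile normalisation, -0.0031 with median centring and -0.0040 with the neuron marker median; leaving out 1 library gave -0.075 to 0.085. Scn7a with the fusion protein against vehicle was -0.022 with quantile normalisation and -0.012 with array weights, and -0.028 to 0.061 on leaving out 1 library; Scn3b was then -0.092 to 0.017. Scn10a between the treatments was -0.016 with the replicate block and -0.030 to 0.091 on leaving out 1 library. Scn4b with the combination was 0.013 with array weights and -0.10 to 0.0011 on leaving out 1 library. With trends removed, alone, with the late number, with the block and with the neuron marker median, it was 0.091, 0.12, 0.091 and 0.080; Scn10a with the fusion protein against vehicle was 0.033, 0.010, 0.0025 and 0.033, and Scn9a 0.031, 0.027, 0.030 and 0.031. The cause was not tested.

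No scaling moved the median of all genes by over 0.1. The share of lower genes among all called between the treatments was 75.1%, and 59.2% with quantile normalisation, 46.4% with the neuron marker median and 58.2% with trends removed. Depth is unknown, so no limit from it is given.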
